A study of Mus musculus with 12 samples.

Results

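The insulin and insulin-like growth factor (IGF) axis was followed through 10 genes of the liver: Igfbp1, Igfbp2, Igfbp3, Igfbp4, Igf1, Igfals, Irs1, Irs2, Insr and Ghr. They were found by their symbol in the platform annotation, which gave 12 rows of 35556 in the value table and 10 of the 19938 genes measured, with 2 rows each for Irs1 and Insr. Liver RNA of 12 male C57BL/6J mice was hybridised to Affymetrix gene arrays, 1 array per mouse. K289R livers (n = 6) came from knock-in mice whose LRH-1, the nuclear receptor encoded by Nr5a2, carries an arginine in place of a lysine (a base change these arrays do not read), and WT livers (n = 6) came from mice without the change. Both groups had food withdrawn for 24 h and returned for 6 h before collection, and the change was not limited to the liver by any label. The labels give separate biological replicates, 1 mouse each. The comparison asks which transcripts of this axis differ between the genotypes after refeeding.

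Insulin binds its receptor on hepatocytes, the receptor phosphorylates the adaptor proteins Irs1 and Irs2, and the kinase cascade downstream keeps the transcription factor FoxO1 out of the nucleus. Growth hormone acts through its own receptor on hepatocytes and drives secretion of IGF-1, most of which circulates bound to IGF-binding proteins, with the acid-labile subunit stabilising the complex with IGFBP-3. Igfbp1 is a classical gene that fasting raises and insulin represses, so a refed liver normally holds little of it, and Igfbp2 is also lowered by feeding.

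Facts of the whole array set bear on these genes as follows. Array medians ran from 26.8 to 29.2 in linear intensity units, and pairwise correlations of log2 values ran from 0.985 to 0.995. Hepatocyte markers (7 of 8 measured) had mean log2 levels of 11.93 to 12.02 in K289R and 11.98 to 12.04 in WT. Pancreatic acinar markers (9 of 12 measured) had mean log2 levels of 9.23 and 9.88 on arrays K289R 1 and K289R 3, 4.55 to 4.92 on the other K289R arrays and 4.67 to 4.89 in WT. Pancreatic islet markers (6 of 7 measured), insulin among them, lay between 4.30 and 4.71 in K289R and between 4.38 and 4.63 in WT. Acute phase genes (18 of 18 measured) ranged from 8.50 to 9.17 in K289R, and in WT they were at 10.01 and 10.12 on arrays WT 1 and WT 3 and at 8.55 to 8.80 on the others. Skeletal muscle markers were highest on WT 1 (7.14) and K289R 3 (6.07). Fewer cells of a type and less RNA per cell cannot be told apart in whole liver.

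None of the 10 genes passed a two-sided limma test with Benjamini-Hochberg adjustment over all 19938 genes at an adjusted p under 0.05, a threshold that 0.572% of all genes passed (0.481% higher and 0.0903% lower in K289R). At an unadjusted p under 0.05, Igfbp1, Igfbp3 and Insr were higher in K289R, 3 of the 10 genes against 6.42% of all genes. Igfbp2 was lower, 1 of the 10 against 5.61% of all genes. The genotypes overlapped for all 10 genes, whereas 1.24% of all genes had groups that did not overlap (0.853% higher and 0.391% lower in K289R). Of the 10 log2 differences 5 were positive and 5 negative, their median was 0.01, and 7 lay within 0.2 of 0. The median over all genes was -0.01, and 46.0% of all genes had positive differences. Adjusted p-values below come from this fit unless another setting is named. The plot of intensities by mouse shows the 10 genes.

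**Figure D1:**
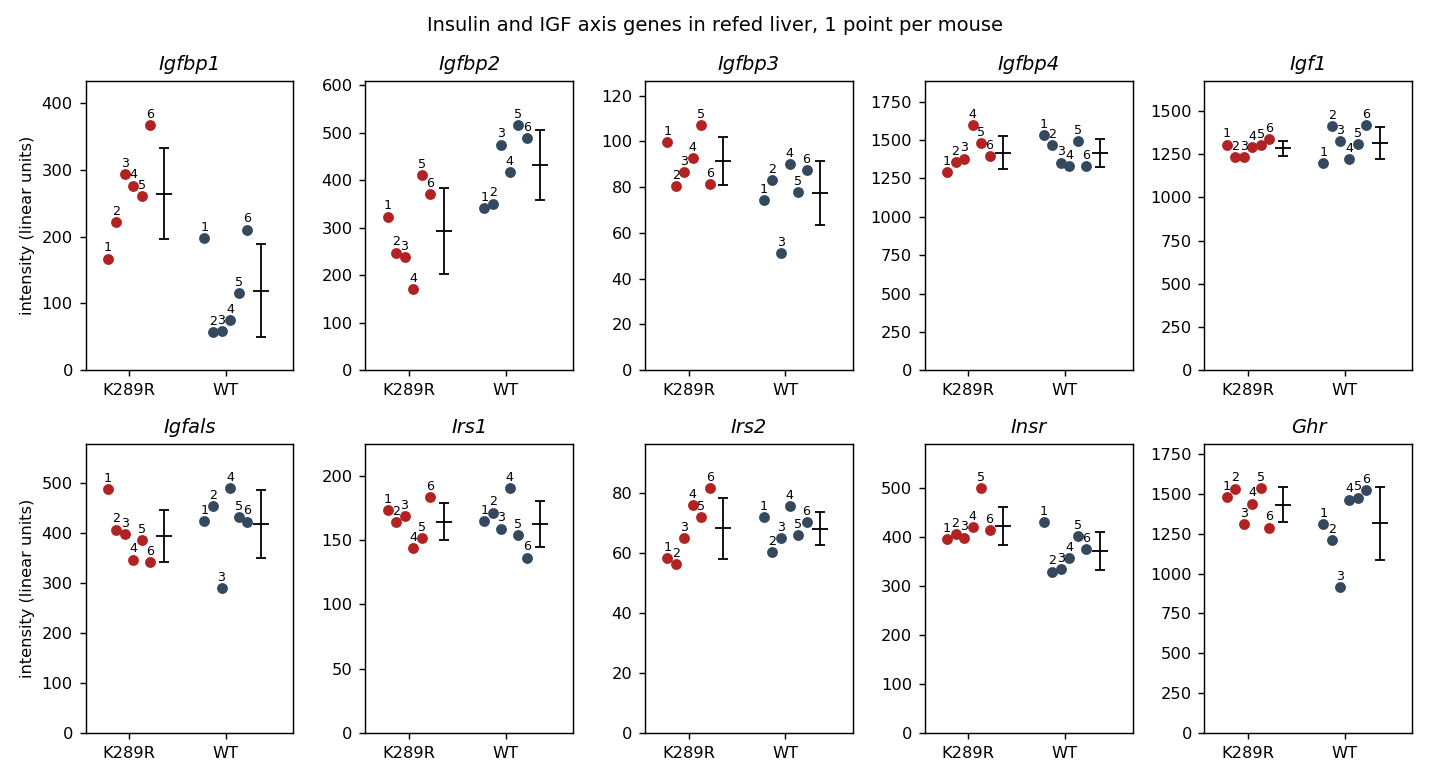
Linear intensity of each of the 10 genes, 1 point per mouse with its replicate number, K289R (red) left of WT (blue-grey). Bars give the mean and SD of 6 mice, and every axis starts at 0. Igfbp1 has 5 K289R points above the highest WT point, Igfbp2 has 4 K289R points below the lowest WT point, and array WT 3 is the lowest of its group for Igfbp3, Igfals and Ghr.

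Igfbp1 encodes a binding protein that is secreted by the liver and limits free IGF-1 during fasting. Its intensity was lowest at 167, had a median of 269 and was highest at 367 in K289R livers, against 57.3, 95.3 and 211 in WT livers. In K289R livers 5 of 6 mice lay above the highest WT mouse, and array K289R 1 lay within the WT range. Means were 265 ± 67.6 in K289R and 119 ± 69.3 in WT (SD, n = 6 each). The log2 difference was 1.32 (95% interval 0.68 to 1.95), or 2.49-fold with an interval of 1.60 to 3.88, and the limma adjusted p was 0.0629. By p it ranked 144 of 19938 genes, and 0.155% of genes had a larger absolute log2 difference. The threshold was passed without array WT 1 (adjusted p = 0.0200), without WT 6 (log2 difference 1.52, adjusted p = 0.0157) and when dim genes were left out (adjusted p = 0.0460), and the adjusted p ran up to 0.195 over the 23 alternatives tried.

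Mice of one genotype differed widely in Igfbp1. In WT the highest mouse had 3.67 times the lowest, with arrays WT 1 (198) and WT 6 (211) apart from the other 4 (57.3 to 115), and 0.186% of genes had a larger SD of log2 values in WT. In K289R the highest mouse had 2.20 times the lowest, and 1.33% of genes had a larger SD. Of the WT arrays with the highest acute phase level, WT 1 was high and WT 3 was low in Igfbp1 (58.2). Without WT 1 and WT 3 the log2 difference was 1.35 (adjusted p = 0.0660), and without K289R 1 and K289R 3 it was 1.42 (adjusted p = 0.114).

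The promoter of Igfbp1 is shown because this gene had the largest difference of the 10. That of Irs2 is shown because it is another FoxO1 target among them and had a log2 difference of -0.01. Both windows run from 250 bases before to 50 after the start of the gene, 5′ to 3′ on the gene's strand, from RefSeq (GRCm38.p6). Igfbp1 lies at chr11:7197537-7197836 on the plus strand and Irs2 at chr8:11008880-11009179 on the minus strand. Capitals mark matches to the core of the insulin response element, TGTTTTG or its reverse complement CAAAACA.
Igfbp1: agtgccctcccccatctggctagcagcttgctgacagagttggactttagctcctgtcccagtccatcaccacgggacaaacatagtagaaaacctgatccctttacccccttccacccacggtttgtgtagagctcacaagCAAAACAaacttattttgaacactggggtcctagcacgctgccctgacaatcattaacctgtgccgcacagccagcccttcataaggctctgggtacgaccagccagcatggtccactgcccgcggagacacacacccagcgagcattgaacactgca
Irs2: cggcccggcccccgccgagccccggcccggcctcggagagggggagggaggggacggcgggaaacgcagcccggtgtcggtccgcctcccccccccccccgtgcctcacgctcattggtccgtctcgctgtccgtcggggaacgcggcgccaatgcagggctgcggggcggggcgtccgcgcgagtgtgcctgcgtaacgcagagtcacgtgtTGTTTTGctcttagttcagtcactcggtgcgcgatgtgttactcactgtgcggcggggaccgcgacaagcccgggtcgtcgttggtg

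Each window held 1 such match, whose first base was at -108 in Igfbp1 and at -37 in Irs2, and it overlapped no match to another motif searched. Matches on either strand were present in 6.28% of the 32851 promoter windows of this length. TGTTTAC, 1 form of FoxO site (3.65% of windows), and the LRH-1 sites CAAGGTCA (1.56%) and CAAGGCCA (2.40%) had no exact match on either strand of these windows. Variants of these motifs and of the insulin response element core were not searched. Promoter windows were at hand for 9 of the 10 genes, 13 windows in all. Beside Igfbp1 and Irs2, Irs1 held the insulin response element core, first bases at -111 and -32, and 1 of the Igfals windows held TGTTTAC.

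Igfbp2, the second binding protein of the liver that feeding lowers, had the opposite sign. Its intensity was 170 at the lowest, 285 at the median and 411 at the highest in K289R livers, against 341, 446 and 516 in WT livers. Arrays K289R 1, 2, 3 and 4 lay below every WT mouse, whereas K289R 5 and K289R 6 lay within the WT range. Means were 294 ± 90.8 in K289R and 431 ± 73.9 in WT (SD, n = 6 each), a log2 difference of -0.60 (95% interval -0.98 to -0.22, adjusted p = 0.175). WT levels were therefore 1.51-fold those in K289R. The lowest mouse was K289R 4, which had the highest acute phase level of its group (9.17), and without it the log2 difference was -0.45 (adjusted p = 0.249). In K289R 0.577% of genes had a larger SD of log2 values than Igfbp2, and in WT 7.65% had.

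A relation between Igfbp1 and Igfbp2 from mouse to mouse was not detected, and so few arrays cannot exclude one. Their deviations from the genotype means had a Pearson r of 0.03 over 12 arrays (Spearman rho 0.06, permutation p = 0.910 and 0.842). The highest Igfbp1 mouse, K289R 6, had the second highest Igfbp2 of its group (371).

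Igfbp3, which carries most of the IGF-1 in blood and is made in liver mainly by cells other than hepatocytes, is the neighbour of Igfbp1 on chromosome 11 with 0 annotated genes between them. Its intensity was 80.6 at the lowest, 89.7 at the median and 107 at the highest in K289R livers, against 51.2, 80.4 and 90.0 in WT livers. The log2 difference was 0.26 (95% interval 0.00 to 0.51, adjusted p = 0.412). Array WT 3 was low, and without it the difference was 0.14 (adjusted p = 0.587). Liver endothelial markers (8 of 8 measured) had mean log2 levels of 7.09 to 7.36 in K289R and 6.87 to 7.27 in WT, and Kupffer cell markers (8 of 8) of 6.29 to 7.25 in K289R and 6.21 to 6.80 in WT. Their part in the Igfbp3 values was not tested.

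Igfbp4, a binding protein that inhibits IGF action, was nearly the same in both genotypes. Its mean intensity was 1417 ± 108 in K289R and 1418 ± 89.6 in WT (SD, n = 6 each), with mice between 1290.1 and 1598 in K289R and between 1329.9 and 1531 in WT. The 95% interval of the log2 difference was -0.15 to 0.14, or 0.903- to 1.10-fold (adjusted p = 0.995).

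Igf1, the secreted hormone of the axis, showed the least spread of the 10 genes in K289R. Its intensity was 1231 at the lowest, 1295 at the median and 1339 at the highest in K289R livers, against 1197, 1318 and 1418 in WT livers, so every K289R mouse lay within the WT range. The SD was 3.32% of the mean in K289R and 7.06% in WT, and 98.3% of genes had a larger SD of log2 values in K289R. The log2 difference was -0.03 (95% interval -0.17 to 0.10, adjusted p = 0.866), an interval of 0.892- to 1.07-fold.

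Igfals encodes the acid-labile subunit, which growth hormone induces in hepatocytes. It measured 343 at the lowest, 392 at the median and 488 at the highest in K289R livers, against 289.6, 428 and 491 in WT livers. The log2 difference was -0.08 (95% interval -0.32 to 0.17, adjusted p = 0.818), and it was -0.18 without array WT 3 (adjusted p = 0.513). Ghr, the growth hormone receptor, measured 1287 at the lowest, 1460.4 at the median and 1538 at the highest in K289R livers, against 915, 1386 and 1525 in WT livers. Its log2 difference of 0.14 (95% interval -0.09 to 0.37, adjusted p = 0.624) became 0.04 without WT 3 (adjusted p = 0.899).

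Array WT 3 was thus the lowest of its group for Igfbp3 (51.2), Igfals (289.6) and Ghr (915), while its Igf1 (1326) lay near the middle. Its acute phase level was the highest of all arrays (10.12). WT 1, at 10.01, had 74.5, 424 and 1308 for Igfbp3, Igfals and Ghr. The part of the acute phase in these values was not tested. Deviations of Igfbp3 and Igfals had a Pearson r of 0.78 over 12 arrays (Spearman rho 0.53, permutation p = 0.0279 and 0.0808, adjusted over 6 pairs p = 0.110 and 0.242). Without WT 3 and WT 4, the arrays farthest from the median of Igfbp3, r was 0.37, so the relation rested on those arrays; within K289R r was 0.34 and within WT 0.96.

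**Figure D2:**
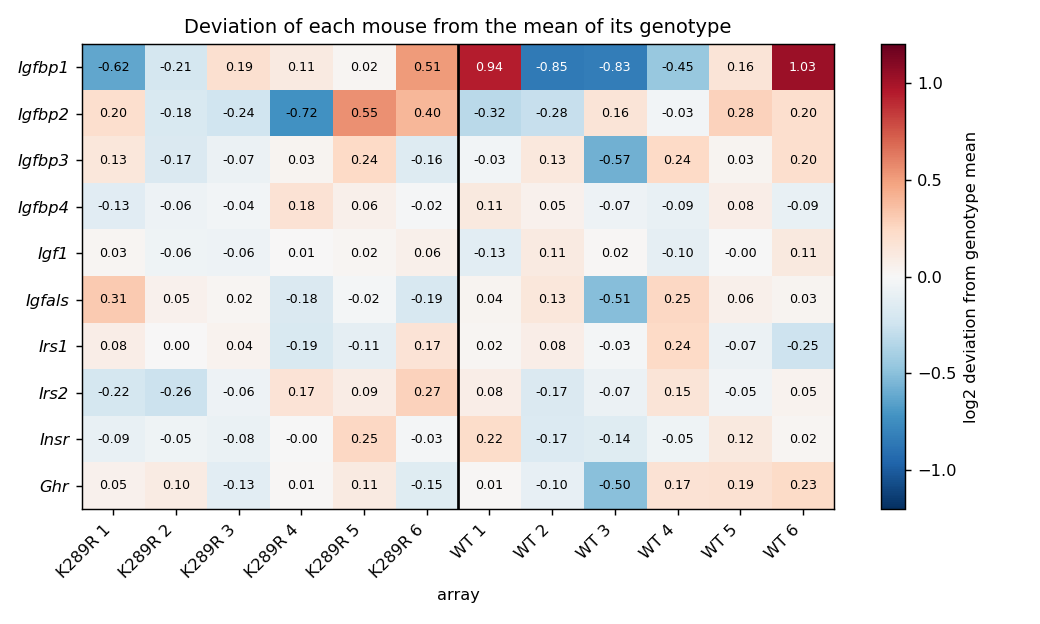
Log2 deviation of each mouse from the mean of its genotype for the 10 genes, K289R arrays left of WT arrays (red above, blue below the mean). Igfbp1 has the strongest deviations, from -0.85 to 1.03 in WT, Igf1 runs from -0.13 to 0.11, and WT 3 is low for Igfbp3, Igfals and Ghr.

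Insr, the insulin receptor, was measured by 2 probe sets with like differences. On probe set 10576692 intensity was 396 at the lowest, 409 at the median and 499.8 at the highest in K289R livers, against 329, 365 and 430.4 in WT livers. The log2 difference was 0.19 (95% interval 0.02 to 0.36, adjusted p = 0.375). On probe set 10576696 means were 266 ± 28.3 in K289R and 239 ± 16.4 in WT (SD, n = 6 each), with a log2 difference of 0.16 (adjusted p = 0.550 in the fit over all rows). There 5 of 6 K289R mice lay above every WT mouse, and K289R 6 (215) lay above only WT 2 (207).

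Irs1 and Irs2, the adaptors that carry the receptor's signal, had nearly equal means in the genotypes. Irs1 averaged 164 ± 14.5 in K289R and 163 ± 18.1 in WT (SD, n = 6 each), with a log2 difference of 0.02 (95% interval -0.16 to 0.19, adjusted p = 0.952). A second Irs1 probe set, 10347792, lay below the array median on all 12 arrays (9.23 to 13.9 in K289R and 10.5 to 11.9 in WT) and is given no weight. Irs2, which insulin represses through FoxO1, averaged 68.3 ± 10.1 in K289R and 68.2 ± 5.49 in WT (SD, n = 6 each). Its difference on the log2 scale was -0.01 (95% interval -0.21 to 0.19, adjusted p = 0.979), an interval of 0.867- to 1.14-fold that lies below the whole interval of Igfbp1.

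Within a genotype, mice with more Igfbp1 tended to have more Irs2, without passing the test. Pearson r of their deviations was 0.52 over 12 arrays (Spearman rho 0.50, permutation p = 0.0367 and 0.0637, adjusted over 6 pairs p = 0.110 and 0.242). It was 0.82 within K289R and 0.50 within WT, and 0.48 without WT 2 and WT 6. The other pairs compared were Igf1 with Igfals (r = -0.16), Igf1 with Ghr (r = -0.09) and Insr with Irs1 (r = -0.36), with permutation p-values adjusted over 6 pairs of 0.910, 0.910 and 0.567.

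**Figure D3:**
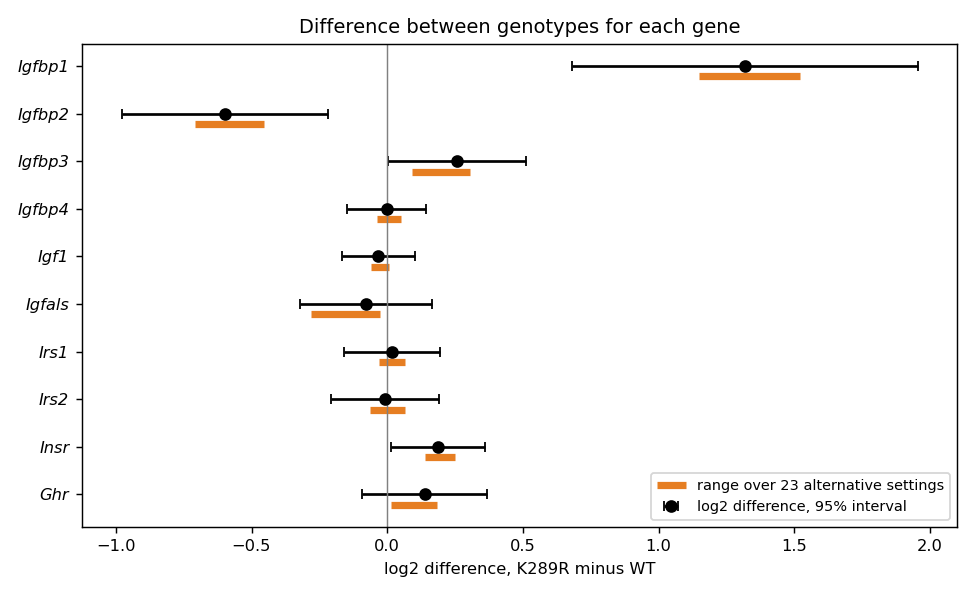
Log2 difference between genotypes, K289R minus WT, with its 95% interval (black) for each gene, and the range of the difference over 23 alternative settings (orange). Igfbp1 and Igfbp2 lie on opposite sides of 0 in every setting, and the intervals of Igfbp4, Igf1, Igfals, Irs1, Irs2 and Ghr include 0.

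Genes whose deviations from the genotype means were most like those of a member were sought among 9571 genes brighter than the median gene, over 12 arrays. Apobec1 (Pearson r = 0.90), Bach1 (0.88), Zfp871 (0.86) and Cemip2 (0.86) were nearest to Igfbp1. Their own log2 differences between genotypes were -0.02, -0.08, 0.10 and 0.16, none of which passed. For Igfbp2 they were Cox7a2 (0.91), Spcs1 (0.87), BC048403 (0.85) and Fads1 (0.84), and for Igf1 they were Tnxb (0.85), Hoxb1 (0.82), Aldh1a7 (0.81) and Cuta (0.79). These are the highest of 9571 correlations over 12 arrays. Values of this size can arise by that selection alone, and none of these relations was tested.

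Around the 10 genes, other genes of the IGF axis gave 0 calls among 14 measured, with a median log2 difference of 0.01 and 7 positive values. Over all genes 0.572% passed and 46.0% had positive differences. The smallest p was that of Igf2r, which clears IGF-2 and sorts lysosomal enzymes: it measured 161 ± 8.48 in K289R and 134 ± 9.84 in WT (SD, n = 6 each, adjusted p = 0.0906). The groups did not overlap for Igf2r. The binding proteins Igfbp5 and Igfbp6 differed by 0.31 and -0.23 on the log2 scale, with adjusted p-values of 0.460 and 0.299. Without K289R 1 and K289R 3 these differences were 0.14 and -0.28 (adjusted p = 0.827 and 0.407). Mean intensities were 50.2 in K289R and 40.1 in WT for Igfbp5. For Igfbp6 they were 21.3 and 24.9, below the array medians.

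Insulin receptor signalling gave 0 calls among 30 measured genes of 33 listed, with a median of 0.00 and 15 positive values (46.0% of all genes were positive). Pik3cb, a catalytic subunit of phosphatidylinositol 3-kinase, was measured 0.23 higher on the log2 scale (adjusted p = 0.243). The guanine nucleotide exchange factor Sos1 was measured 0.19 higher (adjusted p = 0.352). Foxo1, the factor that insulin keeps out of the nucleus, measured 134 to 214 in K289R and 115 to 163 in WT, and its difference of 0.24 on the log2 scale did not pass either (adjusted p = 0.383).

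Of 13 genes that insulin represses in liver, 2 rose and 11 did not pass, and 11 had positive log2 differences with a median of 0.22. Among all genes 0.481% rose and 46.0% had positive differences. Ppargc1a, the coactivator of the fasting response, rose without overlap of the groups: K289R livers measured 75.2 to 92.0 and WT livers 54.4 to 70.9 (adjusted p = 0.00426). Glucose-6-phosphatase (G6pc) also rose without overlap, with 2283 to 2880 in K289R and 805 to 2032 in WT (adjusted p = 0.0218). Of all genes 0.853% were higher in K289R without overlap. The transcription factor Klf15 differed on the log2 scale by 0.22 (adjusted p = 0.289). Without K289R 1 and K289R 3 only Ppargc1a of the list passed, while the log2 difference of G6pc was 0.82 (adjusted p = 0.124) against 0.87 with all arrays, and 8 of 12 fits without 1 array called G6pc. Without WT 1 and WT 3 Pck1, the gluconeogenic enzyme phosphoenolpyruvate carboxykinase, passed too, which brought the count to 3.

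Of 11 measured genes that insulin induces, 0 passed, 9 had positive log2 differences and the median was 0.31. Among all genes 0.572% passed and 46.0% had positive differences. The list median was 0.22 without WT 1 and WT 3, and 0.25 without K289R 1 and K289R 3. It was 0.17 without all 4 arrays. Each time 9 values of the list were positive. Pnpla3, a lipid droplet protein, measured 70.4 ± 20.1 in K289R and 43.3 ± 8.36 in WT (SD, n = 6 each, adjusted p = 0.0753). ATP citrate lyase (Acly) had a log2 difference of 0.47 (adjusted p = 0.157), which was 0.26 without WT 1 and WT 3. Egr1, an immediate early gene, measured 48.7 to 73.7 in K289R and 68.5 to 336 in WT, with the highest value on WT 1, and its log2 difference was -1.01 (adjusted p = 0.122).

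Growth hormone signalling gave 1 call among 15 measured genes of 18 listed, a fall, and the median was -0.08 with 5 positive values. Among all genes 0.0903% fell and 46.0% had positive differences. Socs3, an inhibitor of cytokine receptors that the acute phase also induces, fell without overlap of the groups to 41.4 ± 4.74 in K289R, against 59.1 ± 7.77 in WT (SD, n = 6 each, adjusted p = 0.0184). It was highest on WT 1 and WT 3 (72.1 and 62.7), and without those arrays it did not pass (log2 difference -0.41, adjusted p = 0.102). The part of the acute phase in the Socs3 values was not tested. Without K289R 1 and K289R 3 its log2 difference was -0.52, against -0.51 with all arrays, and did not pass with the fewer arrays (adjusted p = 0.0730). Onecut1, a growth hormone-responsive transcription factor, spread from 79.9 to 211 in K289R and from 123 to 496 in WT, with WT 2, WT 5 and WT 6 above 400 (438, 447 and 496), and its log2 difference was -0.90 (adjusted p = 0.311). Stat5b, which carries the growth hormone signal to Igf1 and Igfals, was measured 0.21 higher on the log2 scale (adjusted p = 0.511).

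Among 12 measured receptors for other hormones 2 rose, against 0.481% of all genes, and 10 did not pass, with a median of 0.07. Klb, the coreceptor for FGF21 and FGF15, measured 156 to 215 in K289R and 97.6 to 137 in WT (log2 difference 0.60, adjusted p = 0.00519), without overlap. The leptin receptor Lepr was dim, with 20.6 ± 3.05 in K289R and 13.7 ± 2.50 in WT (SD, n = 6 each, adjusted p = 0.0277), both below the array medians, and 5 of 12 fits without 1 array called it. Lepr differed by 0.60 on the log2 scale over the 12 arrays, and by 0.64 once K289R 1 and K289R 3 were omitted, where it did not pass (adjusted p = 0.0702). It passed without WT 1 and WT 3 (adjusted p = 0.00566) and without all 4 of these arrays (adjusted p = 0.0145). The thyroid hormone receptor Thra differed on the log2 scale by 0.33 (adjusted p = 0.117). Klb was called in 12 of 12 fits without 1 array, without WT 1 and WT 3 (adjusted p = 0.0252) and without K289R 1 and K289R 3 (adjusted p = 0.0229). Without all 4 arrays its log2 difference was 0.57 and did not pass (adjusted p = 0.0598).

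Igfbp1 is known to respond to amino acid shortage as well as to insulin, and the list of amino acid and stress response genes gave 1 rise among 13. This was Asns, asparagine synthetase, with 702 to 872 in K289R and 35.6 to 80.6 in WT (log2 difference 3.89, adjusted p = 5.32e-11). Vldlr (log2 difference 0.42, adjusted p = 0.0680) and Eif4ebp1 (0.23, adjusted p = 0.246) had the next smallest p, and the list median was 0.02 with 7 positive values. Of all genes 0.481% rose and 46.0% had positive differences. Vldlr passed without WT 1 and WT 3 (adjusted p = 0.0470), and 1 of 12 fits without 1 array called it. Without K289R 1 and K289R 3 its log2 difference was 0.33 and did not pass (adjusted p = 0.315). Without all 4 of these arrays Vldlr did not pass either (log2 difference 0.41, adjusted p = 0.195). The groups did not overlap for Asns, and only just did not for Vldlr. The part of an amino acid response in the Igfbp1 values was not tested.

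**Figure D4:**
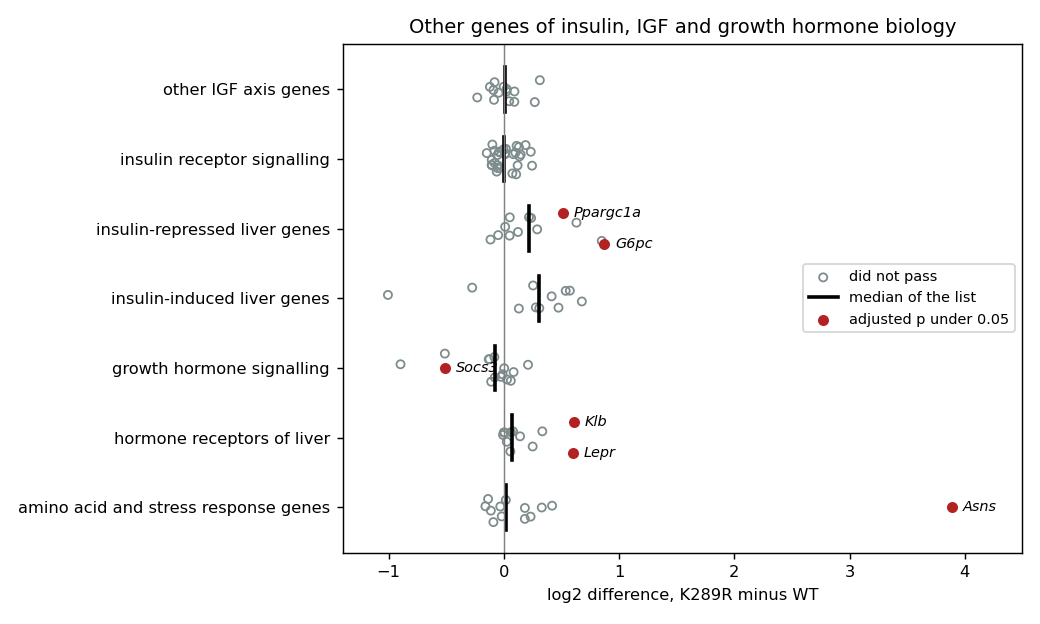
Log2 difference, K289R minus WT, of every measured gene in 7 lists around the insulin and IGF axis; filled points have an adjusted p under 0.05 over all genes, black bars are list medians, and vertical scatter within a list carries no value. Medians of the IGF axis and insulin receptor signalling lists are at 0.01 and 0.00, and those of insulin-repressed and insulin-induced genes are at 0.22 and 0.31.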

How the data were processed

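The deposited table holds linear summarized intensity values, 1 per probe set and array, made with Affymetrix Expression Console per the submitters' processing notes. For its version, summarization and normalization: not given in the sources used here. Upper quartiles of 78.6 to 85.0 over the 12 arrays show a common scale. No detection calls were used, slides and scan dates were not analysed here, and the number of arrays limits the precision.

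Of 35556 rows, 21789 had 1 gene symbol, 1621 several and 12146 none listed; 21698 matched RefSeq (GRCm38.p6) by gene ID. A gene with several rows (999 of 19938) was represented by the brightest. Log2 was taken without a pseudocount, and K289R was compared with WT by limma 3.58.1 (lmFit, eBayes; R 4.3.3) on 12 arrays without covariates. Means ± SD are linear; fold changes come from log2 means. Correlations between genes used deviations from genotype means and 100000 shuffles within genotype, two-sided. Calculations were tested on simulated data.

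The genes and lists were chosen with earlier results of these data known, so lists are described by counts and medians and were not tested. Genes named from a list were its 3 smallest p and any call; genes most alike were the 4 highest correlations, predicted genes and small RNAs left out. Alternatives covered scaling, dim genes, probe sets, the variance model, array weights, all rows, the replicate number as a block and each array left out; leaving out arrays that stand apart was chosen after seeing the data. No block was used in the main comparison, since the labels pair no mice across genotypes. Rows with several symbols or none were not analysed here, and some listed genes are not reported here. Figures were drawn with matplotlib 3.10.9.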

Additional observations from a re-analysis of the deposited data

Results flagged for a closer look

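Within each group of 6 mice the highest and the lowest log2 value were set against the other 5, for 24 combinations of probe set and genotype and 8 of marker list and genotype. Chance marks about 1 in 20 such groups, and 6 of 32 were marked, 4 of 24 for probe sets and 2 of 8 for marker lists. Of the marker lists only acute phase, pancreatic acinar, pancreatic islet and skeletal muscle were examined this way. The genes and lists were chosen with earlier results of these data known, so the count cannot be judged against the chance rate. Array WT 3 stood apart from the other WT arrays in Igfbp3 (51.2, others 74.5 to 90.0) and in Igfals (289.6, others 423 to 491). For Insr, array K289R 5 stood apart on probe set 10576692 (499.8, others 396 to 420.1), and array WT 2 on probe set 10576696 (207, others 240.0 to 256). The skeletal muscle marker list had a mean log2 level of 6.07 on K289R 3, where the other K289R arrays lay between 4.54 and 4.97, and of 7.14 on WT 1, where the other WT arrays lay between 4.76 and 4.95. The causes were not tested.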

How the results depend on the processing

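All differences of Igfbp1, Igfbp2, Igfbp3, Igfals, Insr and Ghr kept their sign over the 23 alternatives, and none of the 10 genes passed except Igfbp1, under 3 of them. Igfbp1 had a log2 difference of 1.32 with dim genes left out (adjusted p = 0.0460, 9969 genes tested, 1 of the 10 genes called) and of 1.15 to 1.52 with single arrays left out (adjusted p from 0.0157 to 0.155), where 0 to 1 of the 10 genes were called; the cause was not tested. The sign turned for genes whose difference was near 0: Igfbp4 in 12 alternatives, Irs2 in 9, Irs1 in 5 and Igf1 in 1. With equal array medians Igfbp4 was 0.0356, Igf1 0.0053 and Irs2 0.0288, and with quantile normalization Igfbp4 was 0.0123 and Irs1 -0.0257. With single arrays left out Igfbp4 ran from -0.037 to 0.025, Irs1 from -0.032 to 0.065 and Irs2 from -0.063 to 0.044. Igfbp4 was 0.0103 without WT 1 and 3. Without K289R 1 and 3, Igfbp4 was 0.0401, Irs1 -0.0142 and Irs2 0.0601; without all 4 arrays they were 0.0521, -0.0145 and 0.064. Over all genes 114 were called, 75 without K289R 1 and 3, 65 without all 4 arrays and 81 to 159 with single arrays left out. The replicate number as a block gave 111 calls over all genes, 0 among the 10 and an adjusted p of 0.0511 for Igfbp1. Same-numbered arrays had correlations of deviations from -0.23 to 0.23, 2 of 6 above 0.1, and 2 of 12 arrays correlated best with their own number. These values cannot exclude a pairing by number, and the labels give none. Dim probe sets, such as those of Lepr and the second Irs1 row, lie where signal over background is not known.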
